A study of Mus musculus with 3 samples.

Results

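*Nrsn2*, *Mllt10*, *Chd2*, and *Bicd2* are 4 of the 21938 protein-coding genes annotated by GENCODE on the chromosomes of the peak lists. They were selected on the vehicle score, since each has the protein-coding transcript start nearest to 1 of the 10 highest-scoring peaks of vehicle-treated Leydig cells. The remaining 6 of these 10 peaks lay nearest to other genes. For each gene, all peaks within the gene or up to 100 kb beyond either of its ends were collected, a stretch called its window here. The 4 windows held 14 peaks of the 5721 in the vehicle list and 12 peaks of the 4025 in that of cAMP. The peak through which each gene was selected is called its lead peak.

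The peaks came from chromatin immunoprecipitation-sequencing (ChIP-seq) of Ad4BP/SF-1 in Leydig cells, the androgen-producing cells of the testis. Cells pooled from male ICR mice of 9 weeks of age were cultured on collagen and treated with vehicle or cAMP, with 1 library for each condition, and the dose and duration of cAMP are not given in the sources used here. Input DNA was sequenced as well, but its reads were not used here. The lists hold positions and scores and no expression values, so the labelled cell type could not be checked against marker genes. The score is that of the peak caller MACS, 10 times the negative log10 of the p-value of a peak, and neither list holds a score below 50. The methods state a looser p-value threshold than this, so weaker peaks that passed it may not be part of the lists used here, and a peak found in a single list may have a weaker match that is not listed. Because no read numbers accompany the lists, the depth of the libraries is unknown, and a score or a rank in the vehicle list need not stand for the same enrichment in the cAMP list. A score also summarises a population of cells, in which fewer occupied cells and weaker occupancy per cell cannot be told apart. With 1 library per condition, no difference between vehicle and cAMP could be set against replicate error, and a region without a peak was not shown to be unbound.

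Ad4BP/SF-1, encoded by *Nr5a1*, is a nuclear receptor that drives the genes of steroid hormone synthesis in the gonads and the adrenal cortex. It binds DNA as a monomer, at a single short element rather than at a repeated one. In Leydig cells, luteinizing hormone acts through its receptor to raise cAMP, which stimulates steroidogenesis. None of the 4 genes is known as a steroidogenic enzyme gene. NRSN2, neurensin-2, is a membrane protein of small vesicles in neurons. MLLT10, also called AF10, is a chromatin protein that works with the histone methyltransferase DOT1L and is fused to other proteins in some leukaemias. CHD2 is an ATP-dependent chromatin remodeller whose loss in humans causes epilepsy with developmental delay. BICD2 is an adaptor that couples the motor dynein to vesicles and to the nuclear envelope.

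The sequences around the consensus of the 4 lead peaks are shown because the presence of a recognition sequence was not used to select them. The consensus searched for was CCAAGGCC, CCAAGGTC, TCAAGGCC, or TCAAGGTC on either strand, and capitals mark it. Bases are those of the reference mouse genome, GRCm38 (mm10), as held by RefSeq, and not of the ICR cells. The *Nrsn2* sequence is the plus strand of chr2:152363674-152363973 and holds both copies of its peak. The *Mllt10* sequence is the minus strand of chr2:18066586-18066673, the *Chd2* sequence the plus strand of chr7:73540584-73540671, and the *Bicd2* sequence the minus strand of chr13:49364863-49364950.
Nrsn2: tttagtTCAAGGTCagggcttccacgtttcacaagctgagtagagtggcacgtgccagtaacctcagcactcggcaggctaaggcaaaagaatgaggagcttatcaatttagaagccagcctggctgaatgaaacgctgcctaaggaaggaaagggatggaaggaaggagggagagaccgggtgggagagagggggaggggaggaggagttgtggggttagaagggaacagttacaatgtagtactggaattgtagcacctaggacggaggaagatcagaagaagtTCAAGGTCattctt
Mllt10: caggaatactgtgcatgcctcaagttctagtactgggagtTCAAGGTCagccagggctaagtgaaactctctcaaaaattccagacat
Chd2: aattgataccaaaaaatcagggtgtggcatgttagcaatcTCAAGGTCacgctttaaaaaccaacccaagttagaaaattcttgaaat
Bicd2: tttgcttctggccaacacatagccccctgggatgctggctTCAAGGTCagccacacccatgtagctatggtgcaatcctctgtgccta

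All 5 copies in the 4 lead peaks were TCAAGGTC followed by an A. Over the whole vehicle list, TCAAGGTC made up 2564 of the 6017 copies, or 42.6% (95% exact Clopper-Pearson interval 41.4% to 43.9%, counting error only), and TCAAGGTC followed by A was present in 36.6% (35.4% to 37.9%) of the peaks. Against this background, 4 of 4 peaks is a description, since high-scoring peaks held TCAAGGTC more often in general. It was found in 7 of the 10 highest vehicle peaks, a count that includes the 4 lead peaks and is no separate background for them. Outside these 10, it was found in 56.7% of the peaks ranked 11 to 100, in 48.1% of the next 900, and in 39.7% of the remaining peaks. Any form of the consensus was found in 4 of the 4 lead peaks, in all of the other 6 peaks among the 10 highest, and in 80.4% of the vehicle list. All 5 copies also lay on the strand opposite to the transcription of the gene named beside them (exact interval 47.8% to 100%). Both *Nrsn2* copies are in the same peak, which lies outside *Nrsn2*, and they are on the strand of the noncoding gene that contains it, *Gm14164*. Of all copies in vehicle peaks, 57.2% (55.9% to 58.4%) lay opposite to the gene with the nearest transcript start.

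Every copy in the lead peaks lay within the overlapping cAMP peak as well, at varied distances from the peak centre. In the *Chd2* and *Bicd2* peaks, the copy was 8 and 26 bp from the centre of the vehicle peak. In the *Mllt10* peak it was 68 bp away, and the *Nrsn2* copies, which start 280 bp apart, were 92 and 188 bp away on either side of the centre. The longest sequence that the lead copies shared with each other, searching 40 bases on either side of each copy, ran for 14 bases between *Mllt10* and *Bicd2*. Each of these 5 sites, taken as 28 bases, occurs once on the chromosomes of the assembly. The *Nrsn2* copy that starts at 152363960, the second as printed and the one nearer to the gene, and the *Mllt10* copy are in repeat-masked sequence, and the other 3 copies are not. Over the vehicle list, 36.1% (34.9% to 37.3%) of the copies are in masked sequence.

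**Figure D1:**
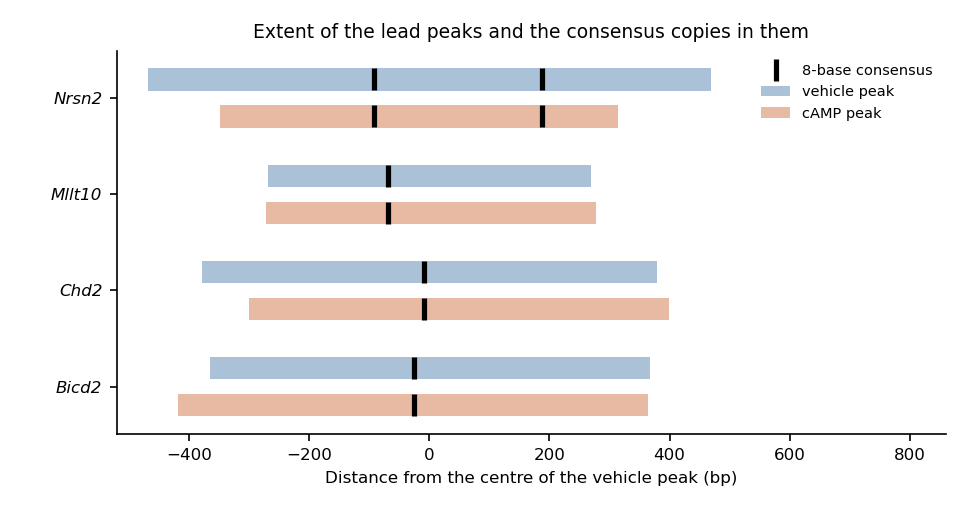
Extent of the 4 lead peaks in the vehicle and cAMP lists (bars) and position of the 8-base consensus (black marks), with the distance from the centre of the vehicle peak in bp on the horizontal axis. All 5 copies lie inside both peaks, and the *Nrsn2* vehicle peak, 937 bp wide, holds 2 of them.

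The lead peaks differed in where they lie relative to the gene. The *Nrsn2* peak, which spans chr2:152363307-152364243 in the vehicle list, is outside the gene. *Nrsn2* (ENSMUSG00000059361.6) is 7884 bp long on the minus strand with a single coding transcript, and the peak begins 4512 bp past its 3′ end. The peak is in intron 2 of *Gm14164*, a noncoding gene of the plus strand whose body contains the whole of the peak. The transcript start nearest to it of any kind is that of a pseudogene, *Gm14165*, 10160 bp away, and the start of *Trib3*, the coding neighbour on the other side, is 19.7 kb away. Assignment of this peak to *Nrsn2* therefore rests on distance to a protein-coding start alone.

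The *Mllt10* and *Bicd2* lead peaks are intronic. *Mllt10* (ENSMUSG00000026743.16) spans 157152 bp of the plus strand of chromosome 2, and its lead peak, at chr2:18066428-18066966, is in intron 2 of a transcript with 23 exons. Its centre is 11.5 kb from the outermost start of the gene and 2.01 kb downstream of an internal coding start. *Bicd2* (ENSMUSG00000037933.16) spans 45442 bp of the plus strand of chromosome 13, and its lead peak, at chr13:49364567-49365298, is in intron 1 of a transcript with 7 exons. The centre is 23.3 kb downstream of the outermost start and 18.2 kb upstream of an internal one, so that no start of the gene is close to it.

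At *Chd2* the lead peak is at the 5′ end of the gene. *Chd2* (ENSMUSG00000078671.11) spans 115193 bp of the minus strand of chromosome 7 and has 7 coding transcripts with 7 distinct starts. Its peak, at chr7:73540257-73541013, is centred 1.10 kb downstream of the nearest of these and covers exon 2 of a transcript with 39 exons, together with parts of introns 1 and 2. The exon holds 62 coding bases and 71 untranslated bases, and the consensus copy is in intron 2 of that transcript. In 2 noncoding transcripts of *Chd2*, one of them with a retained intron, the copy is exonic. The same stretch is annotated on the other strand as intron 1 of *Gm44686*, and on the *Chd2* strand as the last exon of the noncoding *1810026B05Rik*.

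Base composition and width also varied among the lead peaks. The *Mllt10* and *Chd2* peaks were rich in A and T, with a GC content of 38.4% and 37.0%, which was above only 3.39% and 1.82% of the vehicle peaks. The *Nrsn2* and *Bicd2* peaks had a GC content of 51.5% and 53.1%, above 71.6% and 79.4% of the list, whose median was 48.2%. Repeat-masked bases made up 36.3% of the *Nrsn2* peak, 23.4% of the *Mllt10* peak, 18.4% of the *Chd2* peak, and 3.0% of the *Bicd2* peak, beside a median of 13.8%. With 937, 757, and 732 bp, the *Nrsn2*, *Chd2*, and *Bicd2* peaks were wider than 99.2%, 97.0%, and 95.9% of the list, whereas the *Mllt10* peak, with 539 bp, was near the median of 513.0 bp.

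In the central 500 bp of each vehicle peak, the lead peaks included, sites of other factors of steroidogenic cells were searched for on both strands. The cAMP response element TGACGTCA, bound by CREB, was in none of the 4 and in 0.577% of the vehicle peaks. AAAGGTCA, the element of the NR4A receptors, ends in the same AAGGTCA as TCAAGGTC followed by A, but a single site cannot match both. It was in none of the 4 and in 3.81% of the vehicle peaks. The AP-1 sequence TGACTCA or TGAGTCA was present in 2 copies in the *Mllt10* peak alone, beside 15.3% of the vehicle peaks with at least 1. The GATA sequence AGATAA or TGATAA was present in 3 copies in the *Mllt10* peak and in 1 copy in the *Nrsn2* peak, beside 38.6% of the vehicle peaks. These matches are a description of the sequence and say nothing of which factors were bound.

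The 4 lead peaks each had a counterpart, meaning a cAMP peak that shared at least 1 bp, as did 37.9% of the vehicle list. This was shared by high-scoring peaks in general, since a counterpart was found for all of the other 6 peaks among the 10 highest and for 97.8% of those ranked 11 to 100. The scores of the 4 came in another order in the cAMP list. The *Nrsn2* peak scored 904.96 in the vehicle list, where it ranked 1, and 469.03 in that of cAMP, where it ranked 11. For *Mllt10* the scores were 639.90 at rank 7 and 327.73 at rank 37. For *Chd2* they were 613.43 at rank 9 and 443.39 at rank 17. *Chd2*, which was below *Mllt10* in the vehicle list, was thus above it in the cAMP list. For *Bicd2*, the lowest of the 4 in both lists, they were 602.86 at rank 10 and 242.96 at rank 86. The peak just below the threshold, at vehicle rank 11 and nearest to another gene, scored 598.65, and its cAMP counterpart scored 239.79 at rank 89.

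The cAMP score was the lower in all 4 cases. Among the 2163 pairs in which 1 vehicle peak overlapped 1 cAMP peak, the cAMP score was lower in 61.0%, and the median ratio of the cAMP to the vehicle score was 0.88. These pairs were not matched to the lead peaks for score. A vehicle score near the lower limit of 50 leaves little room for a lower listed cAMP score. For the lead peaks the ratio of the cAMP to the vehicle score was 0.72 at *Chd2*, 0.52 at *Nrsn2*, 0.51 at *Mllt10*, and 0.40 at *Bicd2*. The other 6 peaks among the 10 highest of the vehicle list, selected in the same way, were also all lower in the cAMP list, with a median ratio of 0.75 (0.57 to 0.86). Since the vehicle score selected these peaks, the lower cAMP scores are given as a description, and whether they exceed the variation between libraries was not tested. In the cAMP list, the lead peaks ranked between 11 and 86 and the other 6 between 5 and 22.

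**Figure D2:**
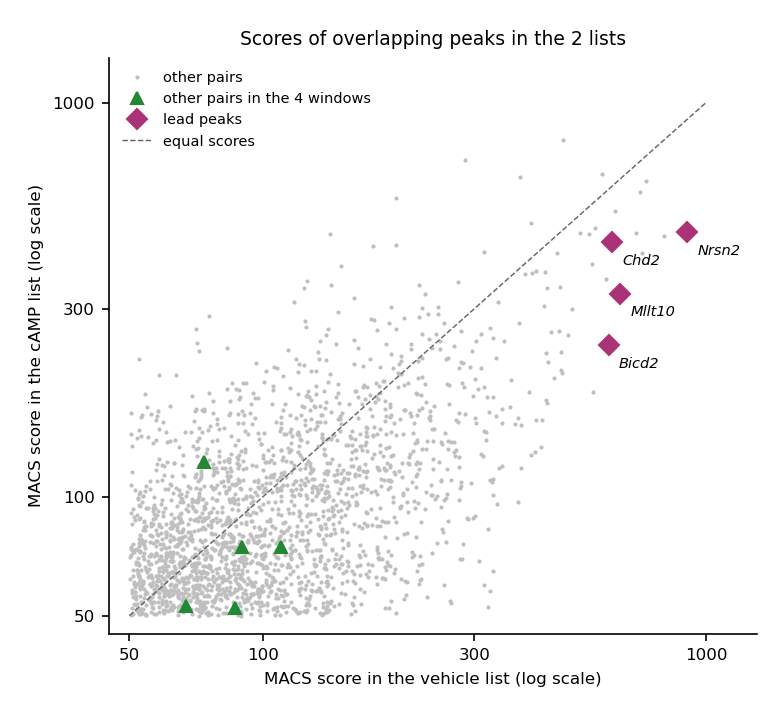
MACS score in the vehicle list (horizontal) against the score of the overlapping cAMP peak (vertical), both on log scales, for the 2163 pairs of overlapping peaks. The 4 lead peaks (diamonds) lie below the dashed line of equal scores, and of the 5 other pairs in the windows (triangles) 1 lies above it.

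The called regions themselves were close in both lists. At *Mllt10*, the starts of the vehicle and cAMP peaks were 3 bp apart and the ends 7 bp apart. At *Bicd2*, the starts were 54 bp and the ends 3 bp apart, and at *Chd2* 78 and 20 bp. The *Nrsn2* cAMP peak, 664 bp wide, lay wholly inside the vehicle peak, which extended 119 bp further at the start and 154 bp further at the end. The *Mllt10* cAMP peak was 10 bp wider than the vehicle peak that it enclosed.

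Apart from the lead peaks, the windows held 10 vehicle peaks and 8 cAMP peaks, none of them near the scores of the leads. In the vehicle list such a gap is favoured by the selection of the leads on their score. The vehicle scores of the 10 other peaks ranged from 55.13 to 110.03 and the cAMP scores of the 8 others from 52.34 to 122.22, beside list medians of 72.39 and 67.85. The nearest other vehicle peak was 50.1 kb from the lead peak at *Nrsn2*, 44.4 kb at *Mllt10*, 46.2 kb at *Chd2*, and 40.3 kb at *Bicd2*, each below the median gap of 50.7 kb over the vehicle list. Each lead peak was thus the only vehicle peak for at least 40.3 kb on either side.

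**Figure D3:**
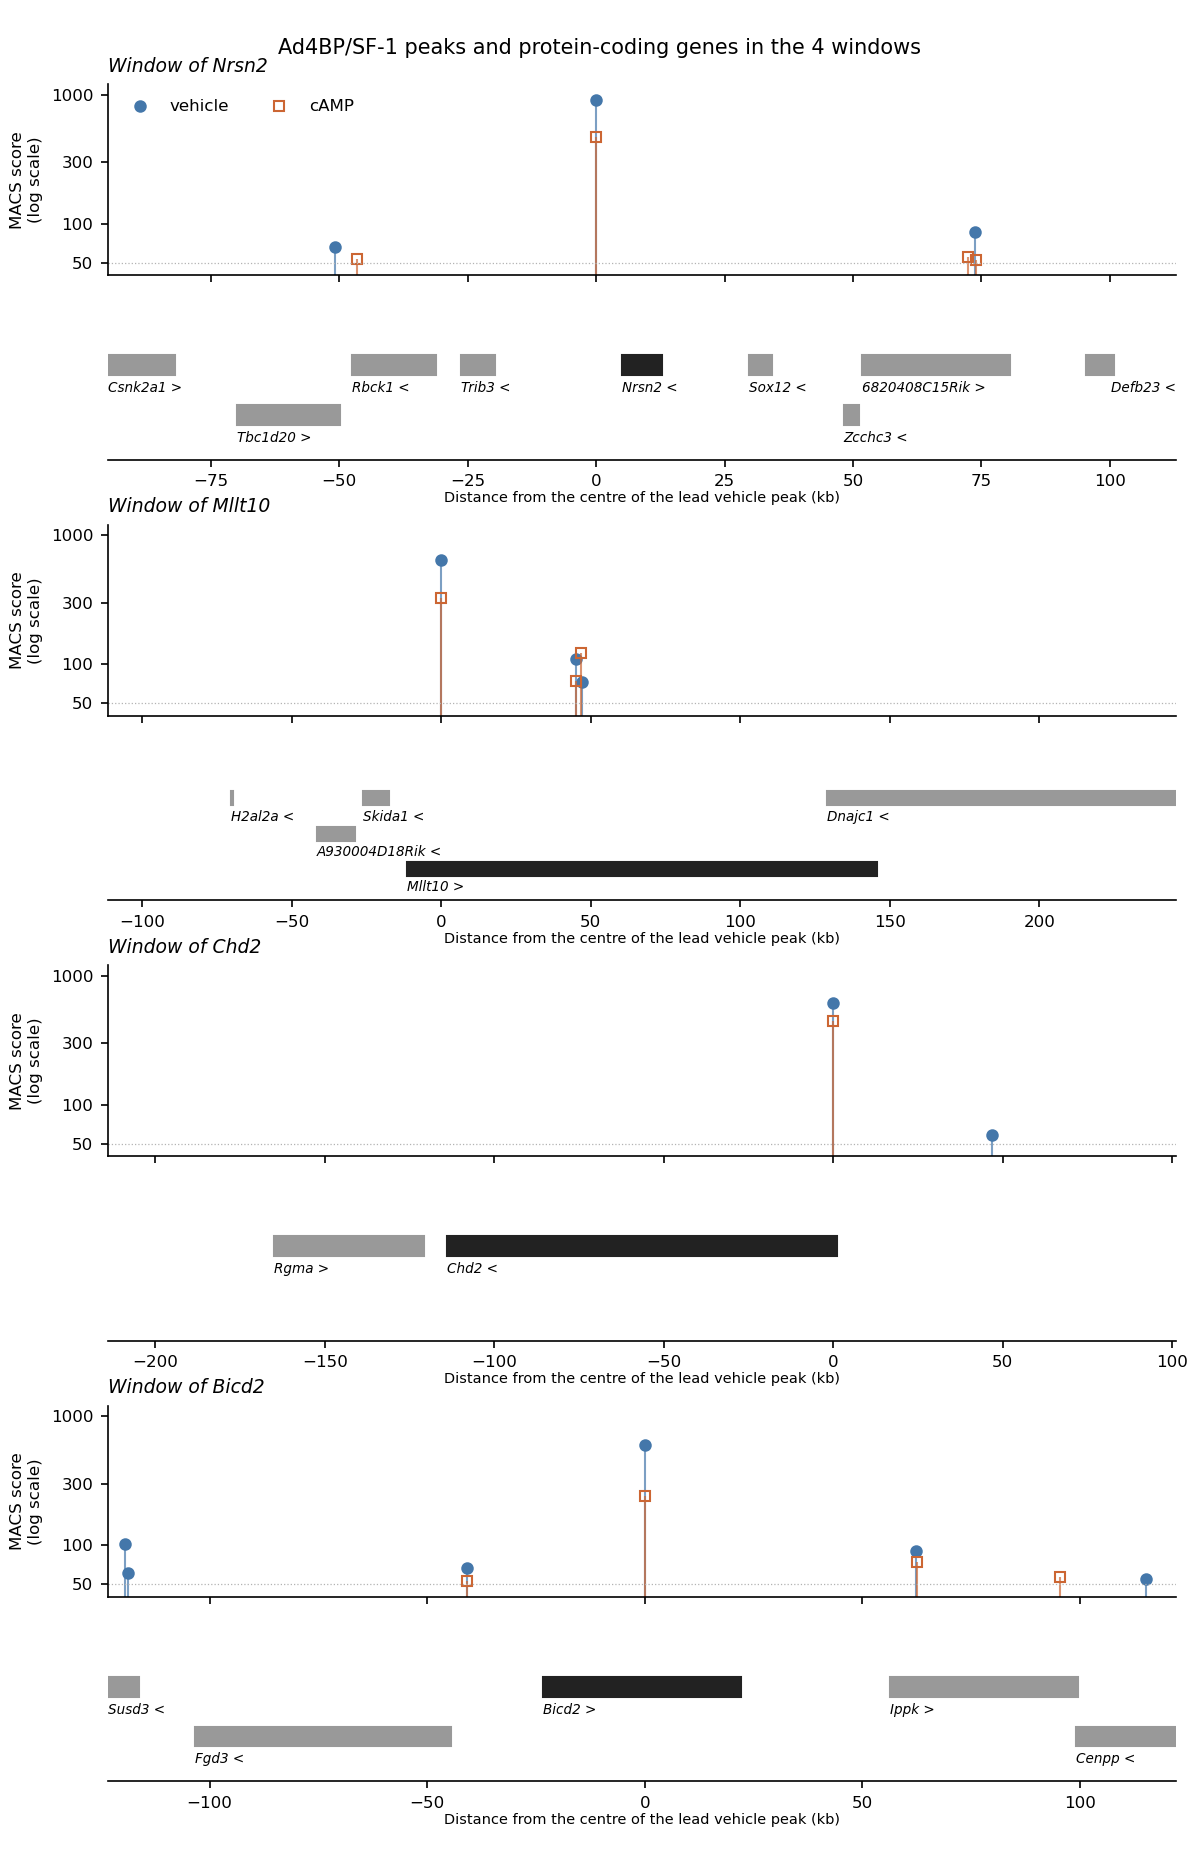
Vehicle (filled circles) and cAMP (open squares) peaks in the window of each gene, with the distance from the centre of the lead vehicle peak in kb on the horizontal axis and the MACS score on a log axis, and below them the protein-coding genes (black, the named gene; grey, its neighbours; > and < give the strand; genes that reach past a window are cut at its edge). The lead peaks, selected on the vehicle score, score at least 242.96 in both lists, and no other peak in the windows scores above 122.22.

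The number of peaks differed among the windows, which were 208 kb long at *Nrsn2*, 357 kb at *Mllt10*, 315 kb at *Chd2*, and 245 kb at *Bicd2*. The *Bicd2* window held 6 vehicle and 4 cAMP peaks, the *Mllt10* window 3 and 3, the *Nrsn2* window 3 and 4, and the *Chd2* window 2 and 1. At least 1 vehicle peak was present in such a window for 49.4% of all protein-coding genes, and at least 1 cAMP peak for 41.3%. That the 4 genes have a vehicle peak was fixed by their selection. At least 2 vehicle peaks, as at *Chd2*, were present for 27.4% of the genes, at least 3, as at *Nrsn2* and *Mllt10*, for 14.0%, and at least 6, as at *Bicd2*, for 1.83%. At least 3 cAMP peaks, as at *Mllt10*, were present for 6.89%, and at least 4, as at *Nrsn2* and *Bicd2*, for 2.61%. The counts of the 4 genes include the lead peak, and windows of other genes differ in length.

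Of the 14 vehicle peaks in the windows, 9 had a cAMP counterpart, which is 64.3% (95% exact interval 35.1% to 87.2%). This count includes the lead peaks, which as high-scoring peaks were likely to have one. Without them it was 5 of 10. All 10 ranked below 1000, and of all vehicle peaks that far down the list 29.5% had a counterpart. Of the 12 cAMP peaks, 9 had a vehicle counterpart (exact interval 42.8% to 94.5%), beside 53.8% of the cAMP list. Without the lead peaks it was 5 of 8. Of these 8 peaks, 1 ranked 566 and the others ranked below 1000, where 42.7% of the cAMP peaks had a counterpart. Among the 5 pairs other than the leads, the cAMP score was lower in 4 and higher in 1, with a median ratio of 0.79.

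*Mllt10* was the gene whose peaks were all found in both conditions. Besides the lead peak, intron 5 of *Mllt10* held a pair of peaks, centred 44.9 and 46.9 kb downstream of the centre of the lead peak. The first, at chr2:18111321-18111938, scored 110.03 in the vehicle list and 74.68 in that of cAMP. The second, at chr2:18113381-18113849, scored 73.55 in the vehicle list, at rank 2764, and 122.22 in that of cAMP, at rank 566. Among the 9 overlapping pairs of the 4 windows it was the only one with the higher score in the cAMP list, by a ratio of 1.66, while the ratio of its neighbour was 0.68. Over all pairs of the lists, 843 of 2163 scored higher in the cAMP list, and the ratios ranged from 0.16 to 4.27. Whether either difference in intron 5 exceeds the variation between libraries was not tested. Both intron 5 peaks hold TCAAGGTC followed by A. They are shown on the minus strand, from chr2:18111628-18111665 and chr2:18113480-18113517, because their scores differ in opposite directions.
Mllt10 first intron 5 site: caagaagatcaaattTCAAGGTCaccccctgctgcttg
Mllt10 second intron 5 site: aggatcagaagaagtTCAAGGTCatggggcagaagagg
The second of these shares a run of 23 bases with the site of the *Nrsn2* copy that starts at 152363960, and both lie in repeat-masked sequence.

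At *Bicd2* the gene itself held the lead peak only, and the other peaks were at its neighbours. A peak 3.76 kb upstream of the start of *Fgd3*, which encodes an exchange factor for a small GTPase, scored 67.10 in the vehicle list and 52.96 in that of cAMP. In intron 1 of *Ippk*, the kinase that makes inositol hexakisphosphate, a peak scored 89.71 and 74.79. The sequence of the *Ippk* site, on the minus strand of chr13:49427400-49427443, is shown because its copies of TCAAGGTC overlap, and that of the *Fgd3* site, on the plus strand of chr13:49324128-49324165, because its 28 bases occur 2 times on the chromosomes of the assembly.
Ippk site: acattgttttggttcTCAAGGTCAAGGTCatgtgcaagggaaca
Fgd3 site: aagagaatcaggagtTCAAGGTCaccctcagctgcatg
The *Ippk* copies span 14 bases in all.

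The *Bicd2* window also held 4 of the 8 window peaks called in a single condition. In intron 1 of *Susd3*, which encodes a membrane protein with a sushi domain, the vehicle list held a peak with a score of 102.76 and another with 60.90, at chr13:49245115-49245735 and chr13:49245838-49246352. The nearest cAMP peak was 77603 bp away from the second of these. A vehicle peak in intron 5 of *Cenpp*, a centromere protein gene, scored 55.13, and a cAMP peak in intron 12 of *Ippk* scored 57.04, 19355 bp from it. The higher *Susd3* peak and the *Cenpp* peak were the only vehicle peaks of the 4 windows without the consensus.

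In the *Nrsn2* window, the peaks beside the lead lay in other genes. The peak in the last exon of *Tbc1d20*, which encodes a GTPase-activating protein of the secretory pathway, scored 66.34 in the vehicle list and had no cAMP counterpart. All of its 459 bases are annotated as 3′ untranslated region. In the cAMP list, a peak in intron 12 of *Rbck1*, which encodes a subunit of the linear ubiquitin ligase complex, scored 53.25 and lay 3795 bp from the *Tbc1d20* peak. A peak over exon 6 of *6820408C15Rik*, with 159 coding bases, scored 86.67 in the vehicle list and 52.34 in that of cAMP. The cAMP list held a further peak in intron 5 of that gene, 980 bp from the vehicle peak, with a score of 55.51 and no consensus. The cAMP scores in this window, the lead aside, were between 52.34 and 55.51, near the lower limit of the list.

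In the *Chd2* window the only other peak was a vehicle peak at chr7:73587243-73587687, outside any gene. Its centre was 45.7 kb from the nearest coding start of *Chd2*, on the upstream side. It scored 57.94, at rank 4381 of 5721, and the nearest cAMP peak, which is the *Chd2* lead, was 46210 bp away. It holds 1 TCAAGGTC followed by A.

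Including these, the consensus was present in 12 of the 14 vehicle peaks and in 11 of the 12 cAMP peaks of the windows, beside 80.4% and 77.1% of the lists. Without the lead peaks the counts were 8 of 10 and 7 of 8. Of the 10 copies in the other vehicle peaks, 7 were TCAAGGTC and 3 were TCAAGGCC, beside 42.6% and 27.8% of all copies in vehicle peaks. The forms that begin with CC were found in neither these nor the lead peaks, and CCAAGGTC made up 17.5% and CCAAGGCC 12.1% of all copies.

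The 4 windows overlapped 45 genes, of which 17 were protein-coding genes other than the 4. A peak was present within the body of 5 of the 17 in the vehicle list and of 3 in the cAMP list, or of 6 in either. Over all protein-coding genes, 12.6% had a vehicle peak within the body and 9.16% a cAMP peak, and the 17 genes were not matched to these for length. The 6 genes were *Tbc1d20*, *Rbck1*, *6820408C15Rik*, *Susd3*, *Ippk*, and *Cenpp*. In the *Nrsn2* window, no peak was called within *Csnk2a1*, a catalytic subunit gene of casein kinase, *Trib3*, a stress-induced pseudokinase gene, *Sox12*, a transcription factor gene, *Zcchc3*, or the defensin gene *Defb23*. Their starts lay between 19.7 and 137 kb from the *Nrsn2* lead peak. The *Mllt10* window held *H2al2a*, a histone variant gene, *A930004D18Rik*, *Skida1*, and *Dnajc1*, a co-chaperone gene of the endoplasmic reticulum, and the *Chd2* window held *Rgma*, which encodes a co-receptor for bone morphogenetic proteins. None of these 5 had a peak within its body, and the nearest start to a lead peak was that of *Skida1*, 17.6 kb from the *Mllt10* peak. *Fgd3* had none within its body either.

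No peak of either list reached the promoters of *Nrsn2*, *Mllt10*, or *Bicd2*, taken as 300 bases around the RefSeq starts and mostly before them. These were 1 promoter of *Nrsn2*, 3 of *Mllt10*, and 1 of *Bicd2*, and none of the 5 contained the consensus. Of 32851 mouse promoters of the same length, 1.14% overlapped a vehicle peak, 0.517% overlapped a cAMP peak, and 5.73% contained the consensus. *Chd2* was not among the promoters matched.

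Genes related to the 4, called family genes here, were examined with the same window. For *Mllt10* this set mixes partners with paralogues and is not a family in the strict sense. Of the 16 family genes other than the 4, 12 had a vehicle peak and 10 a cAMP peak, beside 49.4% and 41.3% of all protein-coding genes, and 9 had both. These genes were not matched to the others for length or for the density of genes around them. The only other neurensin gene, *Nrsn1*, had none. *Dot1l*, the partner of *Mllt10*, had 6 vehicle peaks, the highest with a score of 162.02, and 1 cAMP peak with 67.87. *Mllt6*, a paralogue of *Mllt10*, had 4 vehicle peaks, the highest at 176.40, and no cAMP peak. *Mllt1* and *Mllt3*, which encode readers of acylated histones, had 1 peak in each list, with scores of 239.60 and 101.19 at *Mllt1* and of 54.13 and 50.26 at *Mllt3*.

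Among the other 8 CHD genes, 5 had a vehicle peak and 5 a cAMP peak, and 4 had both. *Chd4*, the ATPase of the NuRD complex, had 8 vehicle peaks, the most of any family gene, yet the highest scored only 85.61, and 3 cAMP peaks, the highest at 151.53. At *Chd3*, its paralogue in the same complex, the highest peaks scored 240.69 and 238.56. *Chd7*, mutated in CHARGE syndrome, had 3 vehicle peaks and 1 cAMP peak, *Chd9* 2 and 2, *Chd6* a vehicle peak only, and *Chd8* a cAMP peak only, while *Chd1* and *Chd5* had none. The other BICD genes all had a vehicle peak. The highest score of any of the 16 genes was at *Bicd1*, the paralogue of *Bicd2*, with 375.40 at vehicle rank 53 and 158.25 at cAMP rank 301. *Bicdl1* had 5 vehicle peaks and 1 cAMP peak, with top scores of 244.96 and 98.76, and *Bicdl2* had 1 vehicle peak with 73.58.

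**Figure D4:**
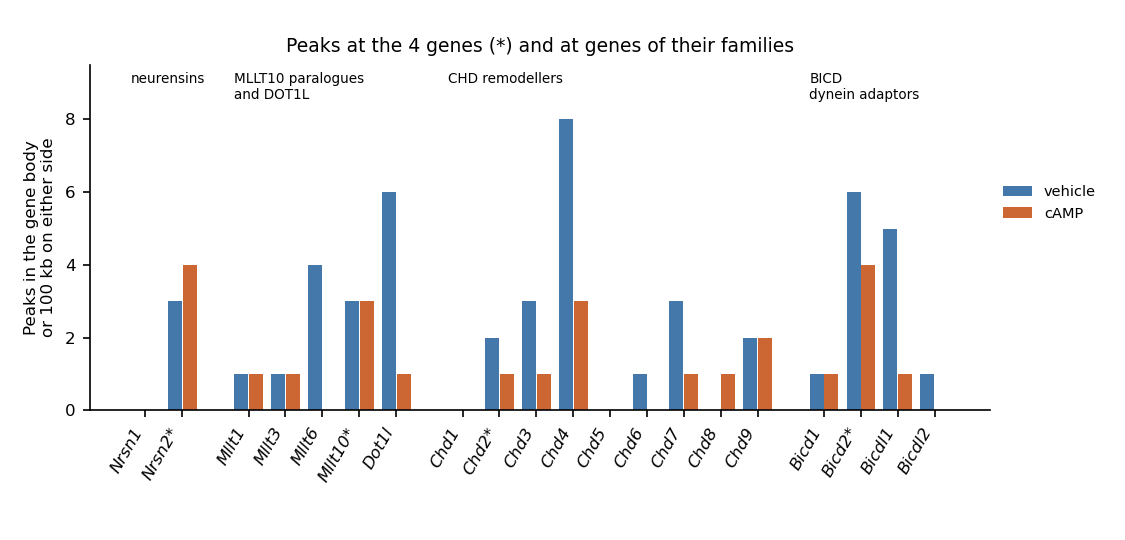
Number of vehicle and cAMP peaks (bars) in the window (gene and 100 kb beyond its ends) of the 4 genes (asterisks) and the other 16 family genes, 1 library per condition. The genes grouped with *Mllt10* include partners as well as paralogues. *Chd4* has the most vehicle peaks, 8, and *Nrsn1*, *Chd1*, and *Chd5* have none in either list.

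Most of these family peaks lay outside the genes. Within the body, 5 of the 16 genes had a vehicle peak and 4 a cAMP peak, beside the 12.6% and 9.16% of all genes. *Dot1l*, *Chd4*, and *Chd9* had one in both lists, whereas *Chd7* and *Bicdl1* had one in the vehicle list and *Chd8* in the cAMP list.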

How the data were processed

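Ad4BP/SF-1 ChIP-seq of cultured Leydig cells gave 1 list of peaks for vehicle and 1 for cAMP, and the input sample was not used here. The authors sequenced the libraries, mapped reads to mm10 with Bowtie (0.12.8 in the submitters' processing notes), kept uniquely mapped reads, and called peaks with MACS without its fragment model. Whether the input was the control is not stated. The deposited score is 10 times the negative log10 of the p-value. Reads with several positions were dropped, which can hide binding in repeats.

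Overlaps, ranks, and distances from peak centres were computed with Python 3.11.15 on GENCODE M21 genes. Overlaps were checked with bedtools 2.31.1, and bases were read with pysam 0.24.0 from GRCm38.p6 indexed with samtools 1.23.1. Promoters were those of RefSeq on GRCm38.p6. Exact Clopper-Pearson intervals (scipy 1.17.1, 95%) cover counting error only, and figures were drawn with matplotlib 3.10.9. The scripts were tested on simulated data. Tied scores share a rank, and coordinates count from 1. No model across features was fitted and no difference was tested, because each condition has 1 library.

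The 4 genes, the windows, the consensus, the other motifs, and the family lists were chosen with earlier results of these data known. Named genes are the 4 genes, the other protein-coding genes in their windows, noncoding genes that a peak overlaps or whose start is nearest to a lead peak, and the family genes. The alternatives were other windows, scores of at least 75 and 100, equal list lengths, stricter overlaps, outermost starts, other lengths of the consensus, and the central 200 bp of each peak.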

Additional observations from a re-analysis of the deposited data

How the results depend on the processing

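The 4 lead peaks kept their nearest gene when only the outermost 5′ ends were used. All 4 contained the consensus in both lists with 7 or 9 bases in place of 8 and in the central 200 bp. These outcomes add nothing to the copies already described. The 7 bases are part of the 8, and the A after each copy completes the 9. The distances of the copies from the peak centres already place a copy of each peak in the central 200 bp. The 9 counterparts remained 9 in number with equal list lengths, with an overlap of at least 50% of each peak, and with centres within 200 bp. With equal list lengths, however, the windows held 12 vehicle peaks in place of 14, beside an unchanged 12 cAMP peaks. Counts in the windows depended on the window and the score, as fewer bases or fewer peaks allow. With 50 kb on either side there were 9 vehicle peaks in place of 14, 8 cAMP peaks in place of 12, and 8 counterparts. The family genes with a peak were then 7 (vehicle) and 6 (cAMP) of 16 in place of 12 and 10, beside 36.7% and 28.9% of all genes. With 10 kb there were 6 vehicle and 6 cAMP peaks and 6 and 6 family genes (19.3% and 14.0% of all genes), and with the gene body alone 5 and 5 peaks, 5 counterparts, and 5 and 4 family genes (12.6% and 9.16%). Scores of at least 75 left 8 vehicle and 5 cAMP peaks with 4 counterparts and 10 and 7 family genes (32.5% and 22.1%), and scores of at least 100 left 6 and 5 peaks with 4 counterparts and 9 and 4 family genes (22.1% and 14.3%). At these scores, 4 of the peaks in each list are the lead peaks. What can be said of a peak called in a single list is limited by the unknown depth and by the lowest listed score, 50. No paired analysis was possible because each condition has 1 library, and for the same reason no library could be left out.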
